A study of Mus musculus with 4 samples.

Results

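Among the cells that the authors annotated as putative spiral ganglion neurons, some carry transcripts of satellite glia and most do not. Cells were selected on the raw count of Fabp7, a fatty acid binding protein that marks glia wrapped around sensory neurons. A cell with 3 or more Fabp7 unique molecular identifiers (UMIs, each a captured mRNA molecule) was placed on the high side, and a cell with 0 to 2 on the low side. Of 6713 cells in the series, 505 were annotated as putative, and 96 of these fell on the high side and 409 on the low side. In mice 1 to 4 the high side held 12, 39, 19 and 26 cells and the low side 46, 142, 102 and 119.

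The single cells came from 4 wild-type male CBA/CaJ mice aged 9 weeks, with no treatment or genetic change, and both sides of a mouse come from the same animal and library. Per the labels, 8 cochlear capsules were opened and the modiolus with its spiral ganglion was taken, together with limbus, inner and some outer sulcus and fragments of the organ of Corti. Tissue was digested in collagenase IV and then papain, 30 min each at 37 °C, and cells were captured 2.5 h after death on the 10x Genomics platform. Non-neuronal cells of the ganglion are present in such a dissection, and no cell in the deposited annotation carries a glial class.

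Spiral ganglion neurons carry sound information from hair cells to the brainstem. Their cell bodies are each enclosed by a satellite glial cell, which takes up transmitter, buffers potassium and is joined to its neighbours by gap junctions. Enzymes and shear have to part the neuron from this sheath before a single cell can be captured.

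The comparison asks which other transcripts accompany Fabp7 in a cell that the annotation calls a putative neuron. Fabp7 itself is a description and entered no test. It had 2429 UMIs on the high side and 45 on the low side, a median of 25 and a maximum of 75 per high cell. The cells near the limit were few: 5 cells held 3 Fabp7 UMIs, just inside, and 5 cells held 2, just outside, while 369 cells held none and 35 held 1. Cells with 3 Fabp7 UMIs gave 0.62% of their UMIs to the other genes of the satellite-glia list and 1.05% to a list of 14 pan-neuronal genes. In cells with 2 UMIs these shares were 0.534% and 1.22%. At 20 or more Fabp7 UMIs, reached by 63 cells, the satellite-glia share was 8.75% and the neuron share 0.189%.

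Cell by cell, the satellite-glia share ran from 0.297% to 16.1% on the high side with a median of 7.33%, and from 0% to 3.05% on the low side with a median of 0.236%. The neuron share ran from 0.0352% to 1.53% with a median of 0.208% on the high side, and from 0% to 3.00% with a median of 1.31% on the low side. More UMIs went to satellite-glia genes than to pan-neuronal genes in 90 of the 96 high cells and in 39 of the 409 low cells. Most of the satellite-glia share came from 1 gene, the apolipoprotein Apoe. With UMIs scaled to a common library total (CPM), Apoe averaged 66171 of the list's 71580 on the high side. On the low side it averaged 1785 of 2700. The cells were not counted with Apoe left out. By this share, which is mostly Apoe, the name putative neuron goes against the leading transcripts of most high cells. Cells of the high side are called high-Fabp7 cells here.

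**Figure D1:**
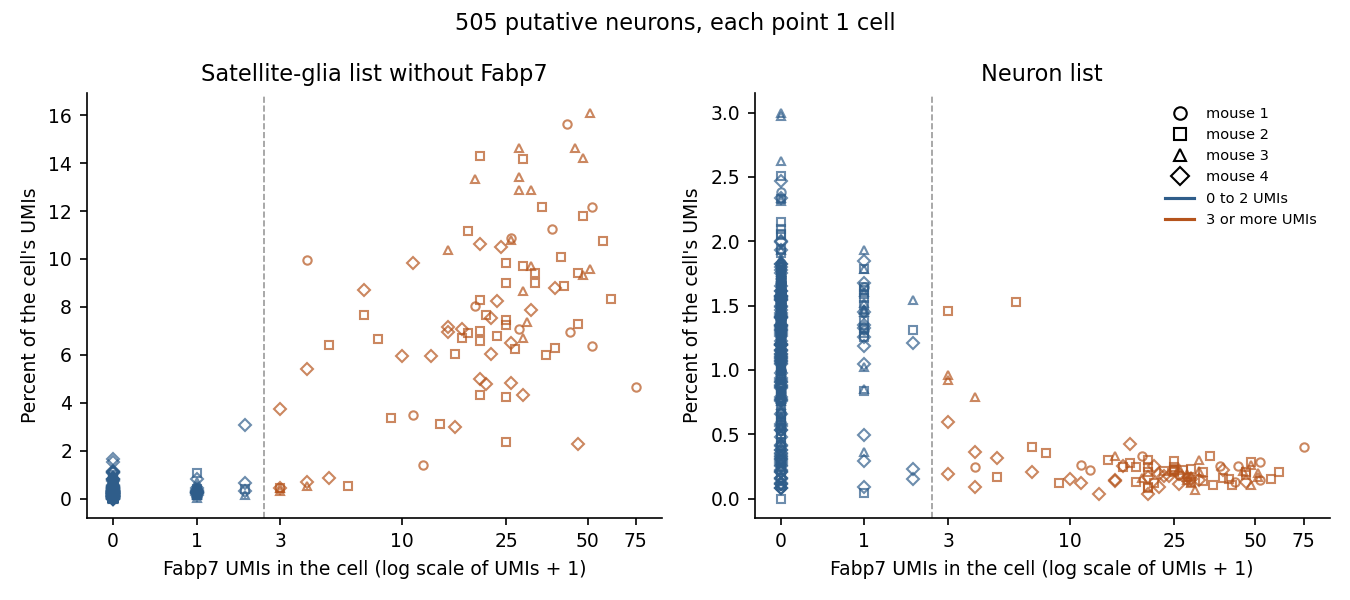
Each point is 1 of the 505 putative neurons, by its Fabp7 UMIs (x axis, log scale of UMIs + 1) and the percent of its UMIs in the satellite-glia list without Fabp7 (left) or the neuron list (right), with symbols for mice and the dashed line between 2 and 3 UMIs. High cells reach 16.1% satellite-glia UMIs, most of which are Apoe on the high side as a whole, and at most 1.53% neuron UMIs.

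High-Fabp7 cells were shallower. Their median UMI count was 3388 ± 283 (SD, n = 4 mice), against 7202 ± 3160 on the low side. Mouse by mouse the high-side medians were 3762, 3235, 3440 and 3116, and the low-side medians 11008, 8270, 5878 and 3654. The log2 ratio of the medians was -0.98 ± 0.60 (SD), lower in 4 of 4 mice. An exact two-sided sign-flip permutation test gave 2 of 16 arrangements, the smallest p that 4 mice allow, which cannot pass 0.05. The low side was itself mixed in depth, with 197 cells under 6000 UMIs and 212 at or above, whereas 89 of the 96 high cells lay under 6000. Mitochondrial transcripts took a median 6.80% ± 0.456 of a high cell's UMIs and 10.6% ± 2.18 of a low cell's. In all, the high side held 374301 UMIs, 8.67% of those in putative neurons.

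The share of putative neurons on the high side was 18.97% ± 2.67 (SD, n = 4). Exact 95% binomial intervals, which cover counting error only, ran from 11.2% to 33.4% in mouse 1, 15.8% to 28.3% in mouse 2, 9.73% to 23.4% in mouse 3 and 12.1% to 25.2% in mouse 4. With every cell thinned to 2562 UMIs and 51 shallower putative cells left out, the share was 18.1% ± 2.47. Of type I neurons, the large class that contacts inner hair cells, 44 of 6113 cells (0.72%) had 3 or more Fabp7 UMIs, at median depths per mouse of 10614 to 18110 UMIs on their low side. Of type II neurons, the small class that contacts outer hair cells, 38 of 95 cells (40.0%) did. Thinned in the same way, the shares were 3 of 6053 type I cells (0.0496%) and 27 of 94 type II cells (28.7%). The library barcodes repeat in 26 cases between mice, which touches 2 putative cells, 1 of them on the high side.

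UMIs were summed per mouse and side, and 6019 genes passed the filter on low counts and were tested with edgeR's quasi-likelihood test with mouse as a block. At a Benjamini-Hochberg adjusted p under 0.05, 675 genes (11.2% of those tested) were higher on the high side and 808 (13.4%) were lower. The 4 mice of one side did not overlap the 4 of the other in 465 of the higher and 785 of the lower genes, and in 2183 of all 6019 tested. The median log2 difference over all tested genes was -0.13. Levels are given as CPM, the UMIs of a gene scaled to a common library total, so a rise of one group lowers the share of all others. UMIs per cell are given beside them for some of the lists. High cells were shallower, so a list that is higher by CPM can be lower in UMIs per cell.

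Satellite-glia genes were higher on the high side. Of 14 members besides Fabp7, 12 passed the filter on low counts and 12 were higher, with a median log2 difference of 2.89. Cdh19 and Erbb3 did not pass the filter. Fabp7, which chose the cells, is a member of this list, so the direction of the others is given as a description and nothing is read from it. The source of this RNA was not tested. The list without Fabp7 summed to 82585, 62622, 87253 and 53860 CPM on the high side of mice 1 to 4, and to 2584, 2848, 2444 and 2924 CPM on the low side. Per cell this was 282 ± 73.7 UMIs against 27.7 ± 7.39.

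Apoe, an apolipoprotein that carries lipid between cells (7:19696109-19699188, minus strand, GRCm38), was the most abundant of them and gave most of the list sum on both sides. It stood at 76182, 57383, 82124 and 48994 CPM on the high side and at 1697, 1892, 1484 and 2068 CPM on the low side, a log2 difference of 5.43 ± 0.20 (SE). All 96 high cells held Apoe, and no single cell gave more than 3.06% of its 23487 UMIs. Ednrb, the endothelin B receptor of glia, stood at 1057, 841, 737 and 846 CPM against 5.99, 10.4, 9.13 and 11.9 CPM (log2 6.68 ± 0.23). The sides were far apart in every mouse for both genes.

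Other members followed. The membrane protein Ttyh1 was higher by log2 3.72 ± 0.27 and the glial ligand Lgi4 by 4.31 ± 0.40. Transcription factors Sox2 and Sox10, which hold cells in a glial state, were higher by 2.56 ± 0.25 and 2.08 ± 0.35. The glutamate transporter Slc1a3 (2.16 ± 0.22), glutamine synthetase Glul (1.52 ± 0.16) and the potassium channel Kcnj10 (1.47 ± 0.40) had the smaller differences of the list.

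Npy, neuropeptide Y (6:49822710-49829507, plus strand, GRCm38), had the highest log2 difference of the genes named by rule, 8.40 ± 0.25 with an adjusted p of 1.80e-29 by edgeR. Its level was 2764, 2936, 2772 and 1845 CPM on the high side and 5.99, 4.16, 9.13 and 17.8 CPM on the low side. Mouse 4 was the lowest of the high side and the highest of the low side, and the sides did not overlap. Npy transcripts were found in 90 of 96 high cells and totalled 979 UMIs, with at most 34 in 1 cell. On the low side 34 UMIs lay in 6.11% of cells, and 3.67% of type I cells with 0 to 2 Fabp7 UMIs held one. Of the high cells, 74 held both Npy and Calb2, the calcium buffer calretinin that is abundant in type I neurons.

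The next highest by the same rule were Acsbg1, an acyl-CoA synthetase (log2 7.24 ± 0.36), Hes5 (7.24 ± 0.35), Lhcgr (6.95 ± 0.63), Mmd2 (6.87 ± 0.31) and Luzp2 (6.71 ± 0.51). Sfrp5, a secreted Wnt antagonist, and Adgrg1, an adhesion receptor, had log2 differences of 6.17 ± 0.36 and 5.63 ± 0.53. The lipid transporter Abca8a (4.94 ± 0.34), Tspan18 (4.75 ± 0.56), the matrix proteins Matn4 (4.57 ± 0.41) and Fbln2 (4.49 ± 0.29), and Fam181b (4.48 ± 0.45) completed the 15. In each of these genes all 4 high-side values lay above all 4 low-side values. Lhcgr rests on 28 UMIs and Tspan18 on 21 on the high side.

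Transcription factors were examined next. Notch receptors on glia are activated by neighbouring cells and act through RBPJ on Hes genes, which repress neuronal genes. Hes5 (4:154960923-154962371, plus strand, GRCm38) stood at 346, 326, 362 and 384 CPM on the high side and at 1.496, 4.16, 2.03 and 1.19 CPM on the low side, with 131 UMIs in 37 of 96 high cells. Of 16 listed glial factors, which do not include Hes5, 13 were tested, 9 were higher and none was lower, with a median log2 difference of 2.08. The satellite-glia members Sox2 and Sox10 are also on this list. Among the others Id4, Hes1, Id3 and Id1 were higher by 3.99 ± 0.20, 3.62 ± 0.24, 3.06 ± 0.15 and 2.96 ± 0.18. The Id proteins block neurogenic factors. Id3 alone reached 3903, 3520, 3402 and 2669 CPM against 443, 570, 429 and 453 CPM. Per cell the glial factor list had 30.4 ± 6.84 UMIs (SD) on the high side and 16.2 ± 4.59 on the low side.

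Hes5 is a textbook target of RBPJ. Its window is printed because, of Hes5, Nrarp, Fabp7, Apoe, Npy, Ednrb and Acsbg1, Hes5 alone holds the motif searched for. The window runs from 250 bases before to 50 after the annotated start (chr4:154960673-154960972, plus strand, RefSeq on GRCm38.p6). Capitals mark the RBPJ-type motif GTGGGAA on either strand, and the matches begin at -226 and -83 from the start.

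Hes5: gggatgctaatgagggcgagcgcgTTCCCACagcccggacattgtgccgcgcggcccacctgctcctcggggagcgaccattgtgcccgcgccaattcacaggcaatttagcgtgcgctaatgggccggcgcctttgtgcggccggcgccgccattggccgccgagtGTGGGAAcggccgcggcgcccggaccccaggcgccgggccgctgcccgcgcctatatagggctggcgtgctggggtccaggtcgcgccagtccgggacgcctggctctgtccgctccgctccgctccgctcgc

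The same letters were found in 6.38% of 32851 windows of this length, and in at least 1 window of 7.25% of 27025 genes. Counted by gene, they occur in 1 of 11 listed glial factors (Hey2), 0 of 10 satellite-glia genes and 3 of 11 cholesterol genes that have a window. A match is a description of letters and not a bound site.

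Cholesterol synthesis genes were higher together. In the brain glia make much of the sterol that neurons use and export it on Apoe particles. All 14 tested genes of 17 were higher on the high side, with log2 differences from 1.76 to 3.65 and a median of 2.79. The other genes did not pass the filter on low counts. In this list as in the others, a sparse gene can pass that filter through its higher side alone, which favours such a count. How many genes entered in that way was not counted. The sums below cover all 17 genes, tested or not. The list summed to 3740, 3783, 3830 and 4382 CPM on the high side and to 667, 733, 709 and 720 CPM on the low side. Per cell there were 15.3 ± 0.174 UMIs against 7.28 ± 1.90, so the molecules as well as their share were more numerous in the shallower cells, in 4 of 4 mice.

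Along the pathway, Hmgcs1, which makes the first committed precursor, stood at 691, 960, 830 and 988 CPM against 157, 167, 169 and 151 CPM (log2 2.69 ± 0.17). Mvd and Idi1, which make and isomerise the isoprenoid unit, were higher by 3.65 ± 0.37 and 3.64 ± 0.26. Idi1 had 305, 213, 281 and 538 CPM against 25.4, 31.2, 31.4 and 29.6 CPM. Squalene is built by Fdft1 and oxidised by Sqle, and these were higher by 2.73 ± 0.30 and 2.81 ± 0.31. Late enzymes Nsdhl and Dhcr7 were higher by 3.30 ± 0.39 and 3.17 ± 0.39. Of the named enzymes, Hmgcs1, Fdft1 and Sqle were chosen after their values were seen.

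Sterol genes are switched on by SREBP factors, and the Hmgcs1 window (chr13:119690101-119690400, plus strand, RefSeq on GRCm38.p6) is printed because, of 11 pathway genes with a window, Hmgcs1 is the 1 that holds the sterol-response-type motif CACCCCAC. Capitals mark it, on either strand, at -136 from the start.

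Hmgcs1: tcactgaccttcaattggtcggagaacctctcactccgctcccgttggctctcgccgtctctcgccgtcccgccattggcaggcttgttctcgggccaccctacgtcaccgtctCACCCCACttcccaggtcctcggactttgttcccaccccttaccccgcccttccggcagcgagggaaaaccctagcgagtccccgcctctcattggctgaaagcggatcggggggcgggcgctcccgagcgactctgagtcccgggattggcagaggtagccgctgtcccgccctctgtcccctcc

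That motif lies in 2.87% of all windows. Counted by gene, it occurs in 3.30% of all genes and in 1 of 10 satellite-glia genes with a window. The windows of the other 10 pathway genes lack these letters, which says nothing of SREBP at those genes.

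Genes for potassium buffering and coupling included 5 higher and none lower of 7 tested, of 10 listed, with a median of 1.47. They included Kcnj10, also a satellite-glia member, the gap junction protein Gja1 (4.22 ± 0.42) and the glial sodium pump subunit Atp1b2 (2.38 ± 0.34). Lipid binding genes, which include Apoe, were 6 higher and 1 lower of 12 tested. Dbi, an acyl-CoA binding protein, rose by 3.20 ± 0.15 and the desaturase Scd1 by 2.26 ± 0.20. Of 12 tested basement membrane and matrix genes 6 were higher and 1 was lower, with Vim, Sparc, Lama4 and Serpine2 higher by 2.74, 2.51, 2.50 and 2.23. Vim is on this list but encodes an intermediate filament inside the cell, not a matrix protein. Per cell the matrix list was lower, with 13.2 ± 2.36 UMIs (SD) on the high side against 31.7 ± 12.4. The potassium list had 5.20 ± 1.01 against 3.86 ± 0.889, and the lipid list, Fabp7 left out, 294 ± 70.8 against 71.1 ± 18.0. Apoe, with a median of 224 UMIs per high cell, gave most of the lipid sum on the high side. The higher per-cell sum of the lipid list rests on Apoe, and the list was not summed without it.

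Glutamate handling genes went both ways. Of 8 tested genes 3 were higher and 2 were lower, with a median of 0.56. The amino acid transporter subunit Slc3a2 rose by 1.42 ± 0.20, and the other higher genes, Slc1a3 and Glul, are also satellite-glia members. Slc38a1, which carries glutamine into neurons, was at 40.7, 50.2, 67.0 and 65.9 CPM on the high side against 271, 232, 306 and 292 CPM (log2 -2.002 ± 0.285). In neuron-glia signalling 5 of 13 were higher and 3 lower, and of the higher genes Ednrb, Lgi4 and the phosphatase receptor Ptprz1 (4.31 ± 0.43) are also satellite-glia members. Nrg1, the axonal growth factor read by glial ErbB receptors, was at -2.61 ± 0.51. Per cell both lists were lower on the high side. Glutamate genes had 7.55 ± 0.697 UMIs (SD) against 14.3 ± 4.49, and signalling genes 17.1 ± 2.52 against 25.1 ± 7.36.

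Antioxidant and metallothionein genes were higher in 7 of 17 and lower in none, with a median of 0.33. Prdx6, a peroxiredoxin, had 427, 458, 522 and 362 CPM on the high side against 64.3, 85.2, 97.4 and 101 CPM, and the thioredoxin inhibitor Txnip was higher by 2.38 ± 0.30. Of 6 tested axonal injury genes, a list that also holds Npy, 4 were higher. Csrp1 was higher in 4 of 4 mice (1.85 ± 0.26), whereas Atf3 (1.13 ± 0.22) and Sox11 (1.02 ± 0.38) were lower in mouse 3 and higher in the other 3. In antigen presentation 2 of 4 were higher, B2m by 1.07 ± 0.18 and Tap2 by 1.96 ± 0.47. Per cell the antioxidant list was lower on the high side, with 32.8 ± 3.51 UMIs (SD) against 71.7 ± 18.6. So was the antigen list, with 2.85 ± 0.917 against 5.06 ± 1.80, whereas the injury list had 14.0 ± 1.86 against 6.93 ± 1.37. Npy gave most of the injury sum on the high side, with a median of 9 UMIs per high cell, and was sparse on the low side. The higher per-cell sum of the injury list therefore rests on Npy, and the list was not summed without it.

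Immediate early and dissociation genes respond within minutes to stimuli and to enzymatic tissue digestion. Of 28 tested, 21 were higher and none was lower, with a median log2 difference of 1.499. The list summed to 24635, 23428, 15830 and 33333 CPM on the high side, against 10719, 11395, 9990 and 11353 CPM. Per cell the order was not the same: 93.9 ± 22.9 UMIs on the high side and 112 ± 32.5 on the low side, more on the high side in 1 of 4 mice. Ier2 stood at 1524, 1136, 844 and 1186 CPM against 150, 186, 188 and 181 CPM, and Cyr61, Klf6 and the heat shock gene Hspa1a were higher by log2 2.61, 2.58 and 2.26. The nuclear factor Fos, named after its values were seen, had 3740, 3212, 2799 and 5590 CPM against 1095, 969, 834 and 1035 CPM.

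Pan-neuronal genes were lower on the high side. Of 14 pan-neuronal genes all 14 were lower, with a median of -1.72. The list summed to 2398, 4762, 3817 and 2131 CPM on the high side and to 15195, 13748, 14391 and 11329 CPM on the low side. In molecules this was 12.9 ± 5.37 UMIs per high cell against 145 ± 57.7 per low cell. The vesicle fusion protein Snap25 had 427, 1129, 884 and 417 CPM against 3790, 3289, 3695 and 3072 CPM, and 1 high cell held 23.9% of its 305 high-side UMIs. Neurofilaments Nefh and Nefl fell by 2.04 and 1.93, and Rbfox3, the NeuN antigen, with 4 UMIs on the high side, by 2.59.

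**Figure D2:**
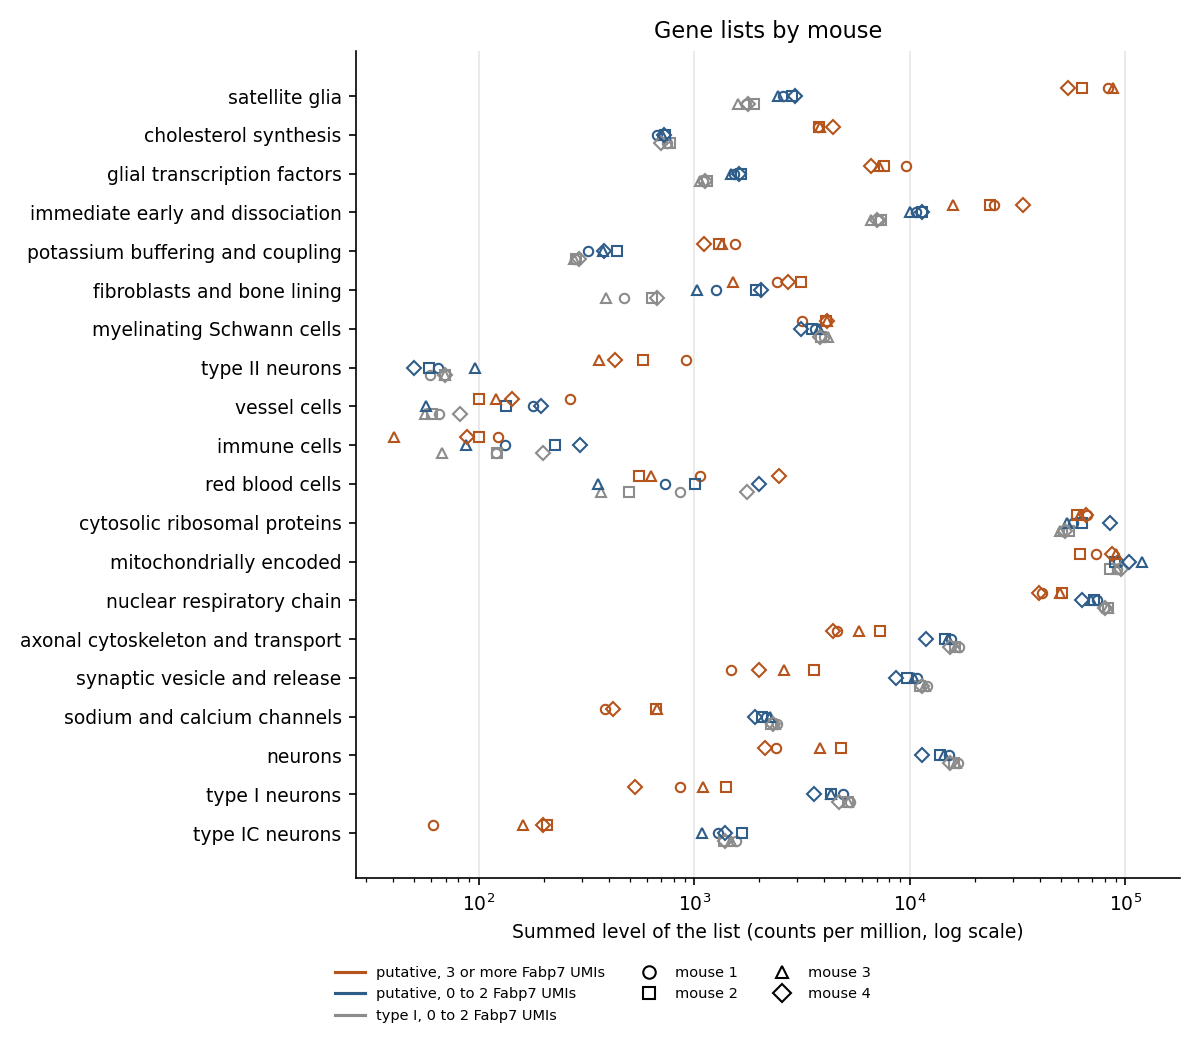
Summed level of 20 gene lists (CPM on a log axis) for each mouse (symbols) on the high and low sides of putative neurons and in type I neurons with 0 to 2 Fabp7 UMIs. The cholesterol list lies at 3740 to 4382 CPM on the high side and at 667 to 733 CPM on the low side, and the neuron list at 2131 to 4762 and 11329 to 15195 CPM.

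The type I list was lower in 7 of 7 genes. Slc17a7, the vesicular glutamate transporter, fell by 2.13 ± 0.28, the sodium channel subunit Scn4b by 2.37 ± 0.31, the calcium buffer Pvalb by 1.88 ± 0.18 and the tubulin Tubb3 by 1.77 ± 0.23. Among subtype markers, Lypd1 of type IC stood at 40.7, 151, 121 and 98.8 CPM against 1065, 1382, 875 and 1118 CPM. Calb2 of type IA had 650, 678, 1460 and 549 CPM against 4936, 3175, 5235 and 2027 CPM. Both subtype genes were lower in every mouse, and Pou4f1 of type IC had 3 UMIs on the high side against 244.

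Most tested genes of vesicle release and of sodium and calcium channels were lower as well. In the synaptic vesicle list 21 of 24 tested genes were lower and 1 was higher, with the vesicle proteins Sv2b, Sv2c and Syp at log2 differences of -2.95 ± 0.55, -2.11 ± 0.41 and -2.07 ± 0.28. Sodium and calcium channels were lower in 9 of 10, including Scn1a at -2.13 ± 0.38. Glutamate and GABA receptors were lower in 3 of 8, among them the NMDA receptor subunit Grin1 at -2.14 ± 0.42. Lower potassium channels were 9 of 15, including the Kv3 channel Kcnc1 at -1.90 ± 0.26 and the Kv1 channel Kcna2 at -1.86 ± 0.27. Axonal cytoskeleton and transport genes were lower in 18 of 24 and higher in 3, with the kinesins Kif5c and Kif5a at -2.43 ± 0.33 and -1.98 ± 0.33. Of 6 tested neuropeptide and granin genes 4 were lower, among them Chgb at -2.04 ± 0.23, and Npy alone was higher.

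Some genes had no UMI at all on the high side. Ankrd34b, with 202 low-side UMIs, was at least 6.39-fold lower, computed against a floor of 3 UMIs over the whole high side, and Tmem178b and Tmem130 were at least 4.72- and 3.61-fold lower, with Zfp367 between them. Sertm1 had 1 UMI against 190, a ratio of low to high of 18.0 with a 95% counting interval from 3.20 to 716. Chst8, Gmpr, Osbpl3, Fbxo34, Vps16, Klhdc10, Ccdc109b, Tmem117 and Kndc1 also had 1 UMI each and Sphkap had 2, so their sizes are poorly fixed.

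These directions are shares of RNA within a cell's library. When libraries were scaled on the neuron list instead, which sets that list to about 0 by construction, the median of all genes moved up by 1.75 on the log2 scale. All 14 cholesterol genes, all 12 tested satellite-glia genes and all 28 immediate early genes were then higher, and 0 of 14 neuron genes were lower. Of all 6019 tested genes, 4027 were higher and 6 lower with this scaling. The higher ones included all 75 ribosomal and all 13 mitochondrially encoded genes, so these counts are not particular to the lists. Without the TMM adjustment the median moved by -0.26, and the split of calls was 525 higher and 1350 lower.

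Energy genes were uneven. Of 78 tested nuclear-encoded respiratory chain genes 26 were lower and 2 were higher, with a median of -0.35. Scaled on the neuron list, 74 were higher and none was lower, where 4027 of all 6019 tested genes were higher. Cox7a1 and Cox6b2, isoforms of cytochrome oxidase subunits, were higher by 3.37 ± 0.28 and 3.22 ± 0.32. Cox8b and Cox5a were at -1.70 ± 0.29 and -1.44 ± 0.16. The 13 mitochondrially encoded genes held 1 higher and 2 lower, near the 11.2% and 13.4% of all tested genes. In 2 alternatives chosen after seeing the data, 12 of 13 were lower among cells under 6000 UMIs, and 2 were higher and 0 lower among cells at most 15% mitochondrial. Over all genes, 428 of 1639 were lower in the first, and 641 of 5607 were higher and 798 lower in the second. Cytosolic ribosomal protein genes were higher in 7 of 75, near the 11.2% of all tested genes, with a median of 0.17. This count moved with the processing. It was 36 with cells thinned, 34 with equal cell numbers and 31 without cells over 3 times the median depth, and without the TMM adjustment 1 was higher and 4 were lower. Over all genes, the higher ones were 394 of 1625, 514 of 2739 and 637 of 3884 in the first 3 settings. Without the TMM adjustment 525 of 6019 were higher and 1350 lower.

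**Figure D3:**
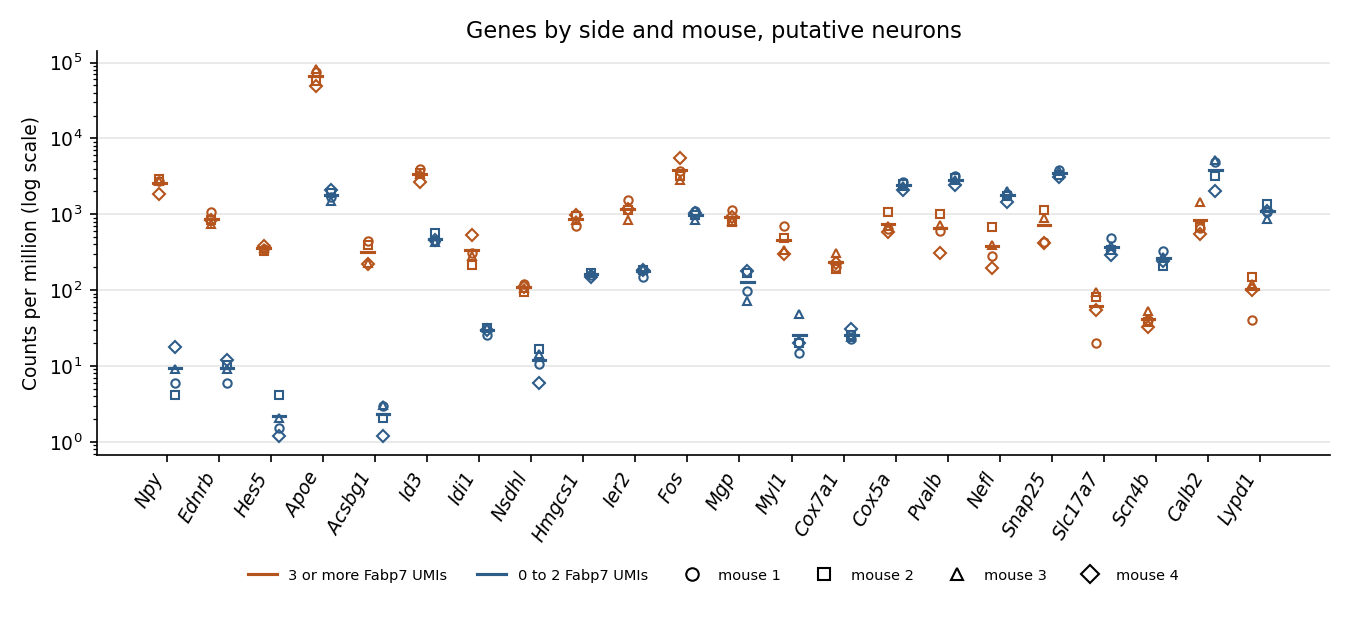
CPM (log axis) of 22 genes on the high and low sides of putative neurons, with a symbol per mouse and a bar at the mean of 4 mice. Npy (1845 to 2936 against 4.16 to 17.8 CPM) and the glial and sterol genes lie higher on the high side, and neuronal genes lower (Snap25 417 to 1129 against 3072 to 3790 CPM).

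Markers of other cell types moved less evenly. Myelinating Schwann cell genes were 4 higher and 1 lower of 12 tested, with a median of 0.15 and sums of 3151 to 4119 CPM on the high side and 3122 to 3767 CPM on the low side. Mal, Egr2 and Cnp were higher by 1.76, 1.76 and 0.92. Fibroblast and bone-lining genes were higher in 4 of 6, led by Mgp, a matrix protein, with 1138, 784, 804 and 934 CPM against 98.8, 168, 71.0 and 177 CPM. Otos in that list was higher in 1 of 4 mice only, at 1506 CPM in mouse 2, and its log2 difference of 0.82 was -0.43 without mouse 2. The list summed to 1513 to 3125 CPM and 1028 to 2046 CPM. Per cell it was lower on the high side, with 9.53 ± 2.80 UMIs (SD) against 15.6 ± 4.34.

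Vessel genes summed to 100 to 264 CPM on the high side and 56.8 to 193 CPM on the low side, immune genes to 40.2 to 122 and 87.2 to 293 CPM, and red blood cell genes to 552 to 2471 and 358 to 2000 CPM. Of vessel genes 1 of 3 was higher (Pdgfrb), of immune genes Lyz2 alone was tested and was lower, and of 3 red blood cell genes none passed. The hair cell list had 5 of 9 measured genes at 0 on the high side and 20.3 to 144 CPM in sum. The part of other cell types in the difference between sides was not tested.

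A marker of type II neurons went the other way from the pan-neuronal genes. Myl1, a myosin light chain (1:66924295-66945404, minus strand, GRCm38), had 691, 489, 335 and 297 CPM on the high side against 15.0, 20.1, 48.7 and 20.2 CPM, a log2 difference of 4.33 ± 0.27. It was found in 49 of 96 high cells, 33 of them among the 63 with 20 or more Fabp7 UMIs, and 1 cell held 12.2% of its 164 UMIs. Dupd1, named after its values were seen and too sparse for the filter, had 21 UMIs in 14 high cells against 8 on the low side. Prph, the defining intermediate filament of type II neurons and likewise below the filter, had 6 UMIs against 8, and Gata3 did not pass (log2 -0.32 ± 0.54). The high side held only 8.67% of the UMIs of putative neurons. As pooled shares, Dupd1 and Prph were therefore both higher there, on few UMIs and without a test. For every 100 Myl1 UMIs there were 3.66 Prph and 12.8 Dupd1 UMIs on the high side and 7.69 of each on the low side. In type II neurons the ratios were 7.80 and 24.1 on the high side and 9.36 and 24.4 on the low side, and in type I neurons 4.26 and 17.0, and 4.65 and 9.41. The Prph ratio of putative high cells rests on 6 UMIs, and the Prph and Dupd1 ratios of putative low cells on 8 each. The type I high side has 44 cells in all, so its ratios are thin too.

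The sides were next compared with those of type I neurons, split by the same Fabp7 counts. In a joint edgeR fit of 8915 genes, the difference between sides itself differed between putative and type I neurons for 1287 genes (14.4%), 558 higher and 729 lower in putative cells. This fit reuses the putative sums of the first comparison, so its calls are no separate evidence for it. The type I sum of mouse 4 on the high side had 5 cells and was left out. The contrasts are not matched in Fabp7, as type I high cells had medians of 3 to 5 Fabp7 UMIs and putative high cells 18.5 to 32.5. Between the type I sides 4 genes were called, all higher, and 424 had an unadjusted p under 0.05.

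Side by side, the interaction was 6.05 ± 0.44 for Npy, 5.03 ± 0.24 for Apoe, 2.32 ± 0.19 for Hmgcs1, 2.87 ± 0.21 for Ier2, 4.25 ± 0.39 for Myl1 and -1.87 ± 0.21 for Snap25. Type II cells on their high side reached 21930 ± 2823 CPM of Apoe and 948 ± 325 CPM of Npy (SD, n = 4), below the 66171 ± 15567 and 2580 ± 496 CPM of putative high cells. Snap25 was at 1279 ± 248 CPM there and at 2661 ± 960 CPM on the type II low side. Those type II sums hold 5 to 14 high and 9 to 21 low cells per mouse and were not tested.

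**Figure D4:**
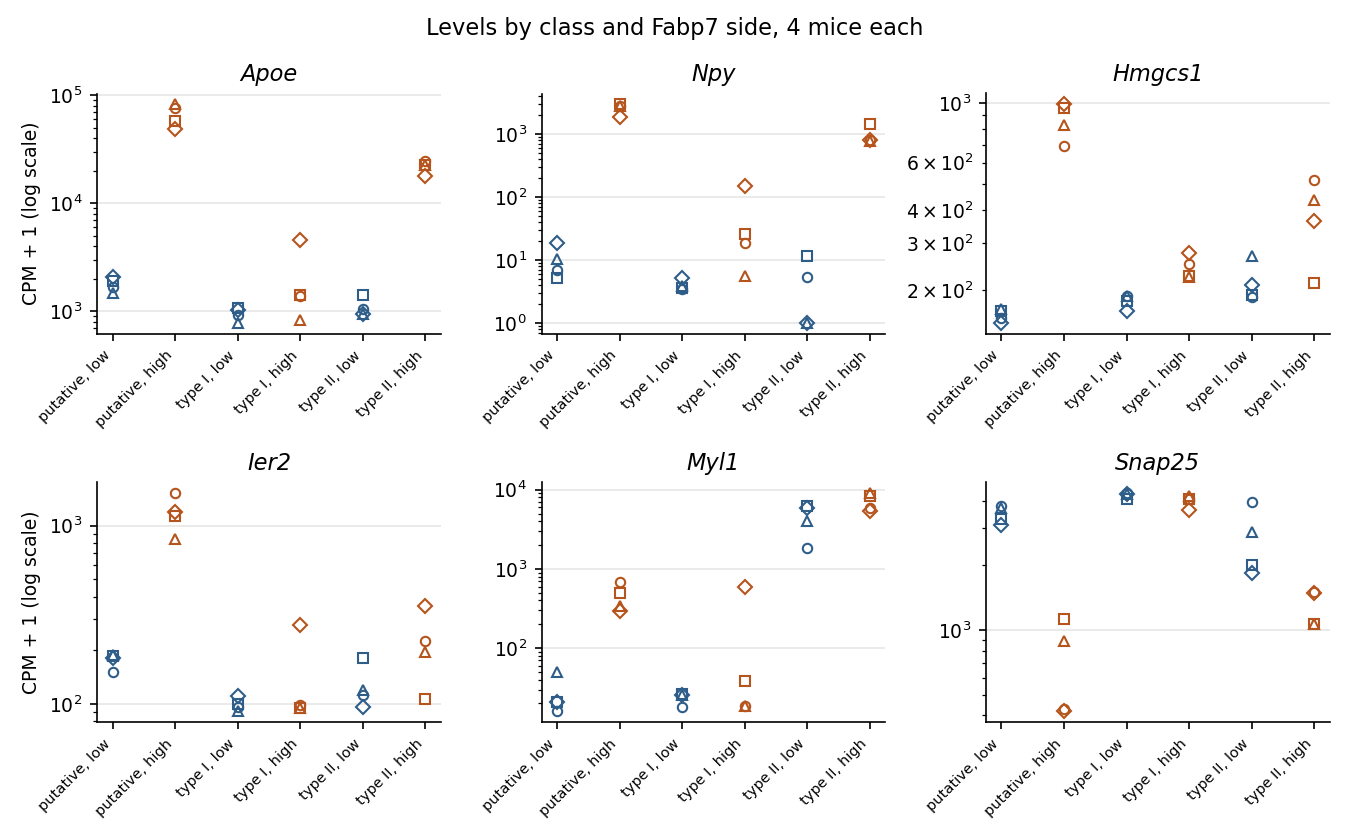
CPM + 1 (log axis) of 6 genes in the low and high Fabp7 sides of putative, type I and type II neurons, with 1 symbol per mouse (circle, square, triangle and diamond for mice 1 to 4). The putative high side has the highest Apoe (48994 to 82124 CPM) and the lowest mean Snap25 (714 CPM), and Myl1 is highest in type II neurons.

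Putative cells of the low side were then compared with type I neurons of the low side. The neuron list summed to 13666 ± 1666 CPM in putative cells and to 16098 ± 582 CPM in type I neurons, and none of its 14 genes was called by edgeR, with 5 at an unadjusted p under 0.05 and 0 by DESeq2. Across 8915 genes 820 (9.2%) were higher in putative cells and 112 (1.26%) lower. Satellite-glia RNA was not absent: the list without Fabp7 stood at 2700 ± 224 CPM against 1750 ± 124 CPM, 4 of 14 genes were higher, and Apoe was at 1785 ± 252 against 948 ± 125 CPM (log2 0.96 ± 0.15).

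Of the immediate early list 26 of 28 genes were higher in these low-side putative cells, with a median of 1.02, among them Cyr61 (1.14 ± 0.10), Hspa1a (1.09 ± 0.10) and Ier2 (0.89 ± 0.09). Cytosolic ribosomal protein genes were higher in 56 of 75 by edgeR and in 25 by DESeq2, with a median of 0.32. All 7 tested fibroblast genes and all 5 tested vessel genes were higher by edgeR (6 and 1 by DESeq2). In antigen presentation 4 of 6 were higher, including H2-D1 (1.92 ± 0.13), H2-K1 (1.83 ± 0.14) and B2m (1.30 ± 0.08). By rule the highest were H2-Q6 (3.94 ± 0.48), the prostaglandin synthase Ptgs2 (3.62 ± 0.31), Foxc1 (3.10 ± 0.26) and Tnfrsf11b (3.07 ± 0.25), and the lowest Zfp580 (-0.81 ± 0.26) and Agmat (-0.74 ± 0.25). Low-side putative cells were also shallower, with medians of 3654 to 11008 UMIs against 10614 to 18110 in type I neurons, and the part of depth in these differences was not tested.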

How the data were processed

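For each mouse the authors deposited a matrix of unnormalised UMI counts, genes by cells. The submitters' processing notes name Seurat 1.4, mm10 and Cell Ranger 2.0.1. The sources used here do not say how cells were filtered or doublets treated, and no doublet caller was run. The authors' deposited annotation (class and subtype, text of unit other) gave the cell classes. The normalised and combined tables were not used here. Of 18143 genes, 77 had no UMI. The cells, gene lists and members were chosen with earlier results of these data known.

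UMIs were summed per mouse and side (at least 10 cells per sum) and tested with edgeR 4.0.16 (R 4.3.3), by its quasi-likelihood test after filterByExpr and TMM scaling, with mouse as a block and an adjusted p under 0.05 (Benjamini-Hochberg). Fabp7 was left out of the tests. The mouse pairs the sides, since both come from the same animal. Log2 differences are given ± SE. The fit of the sides had 8 sums, 3 residual degrees of freedom and a biological coefficient of variation of 0.131. DESeq2 1.42.0 was an alternative. In simulated counts for this comparison, the test recovered 45.8% of 1.5-fold, 97.5% of 2-fold and 100% of 4-fold changes, and called 12 of 17636 unchanged genes. Changes were planted only in genes expected to exceed 10 UMIs in the smallest sum. Every gene had the same coefficient of variation, 0.13, and no mouse effect. Recovery of sparser genes, which include many of those named, was not simulated. Thinned cells were drawn down to 2562 UMIs. Alternatives changed the scaling, filter, Fabp7 threshold, cells and mice. Each group is 4 mice. With mouse as a block, p-values measure the spread of the differences within mice, with information on that spread shared across genes. For the sides, the 3 residual degrees of freedom were joined by a median of 41.6 borrowed from other genes. Named genes had to pass the threshold with at least 20 UMIs on the higher side and 1 direction in 4 of 4 mice. For the interaction the direction was required in mice 1 to 3, as the type I high sum of mouse 4 was left out. Of these genes, the 15 highest and 15 lowest log2 differences, without Gm and Rik models, were named (8 and 8 in the joint fit). Up to 4 members of each list with the largest difference were also named. Every satellite-glia gene could be named. Promoter windows are RefSeq's. Coordinates of genes are from GENCODE on GRCm38, the assembly behind mm10. A few members of the lists are not reported here by name.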

Additional observations from a re-analysis of the deposited data

Results flagged for a closer look

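Of 135 sets of 4 values (35 lists, the rule-named genes, depth and the share of cells, each side on its own), 18 had a highest or lowest mouse set apart by Dixon's 95% criterion, where chance gives about 1 in 20. Among lists, mouse 1 was low for myelinating Schwann cells on the high side (3151 CPM, others 4084 to 4119), mouse 3 was high for type IA neurons there (1513 CPM, others 593 to 728), and mouse 4 was high for cholesterol synthesis (4382 CPM, others 3740 to 3830). On the low side mouse 2 was high for neuron-glia signalling (2638 CPM, others 2339 to 2365).

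Among genes, Npy was low in mouse 4 on the high side (1845 CPM, others 2764 to 2936) and Adgrg1 high in mouse 3 (161 CPM, others 81.3 to 94.1). On the low side mouse 3 was high for Fbln2 (17.2 CPM) and Tmem130 (30.4 CPM). The other 10 had 1 UMI in 1 mouse and 0 in the others, which the criterion picks by construction. They were Sertm1 and Tmem117 (20.3 CPM, mouse 1), Chst8, Fbxo34, Klhdc10 and Kndc1 (6.27 CPM, mouse 2), Gmpr, Vps16 and Ccdc109b (13.4 CPM, mouse 3) and Osbpl3 (10.98 CPM, mouse 4).

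The difference between sides differed between putative and type I neurons, by the interaction test, for the genes named by rule. Higher in putative cells were Ptprz1 (10.7 on the fitted log2 scale), Apoc1 (10.4), Tspan18 (10.1), Mlc1 (10.1), Sfrp5 (7.71), Luzp2 (7.48), Acsbg1 (6.25) and Tex40 (6.06). Lower were Ankrd34b (-11.3), Tmem178b (-11.1), Zfp367 (-10.6), Enox1 (-10.5), Fbxo32 (-10.3), Tmem130 (-10.2), Trim9 (-10.1) and Fbll1 (-9.98). The 8 lower genes have 0 UMIs in putative high cells, and the 8 higher genes have 0 to 4 in type I high cells, so these fitted sizes depend on the prior count and are no bounds.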

How the results depend on the processing

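Both sides of each mouse share an animal, and the fit with no replicate block for mouse called 1548 genes between the sides against 1483 with it, and 1263 against 1287 for the interaction. For the low sides against type I it called 629 higher and 20 lower against 820 and 112. The count between the sides (675 higher, 808 lower) moved to 324 and 85 at 1 or more Fabp7 UMIs against 0 (409 in all), and to 394 and 421 with cells thinned (815), where 1625 genes passed the filter. It was 4027 and 6 scaled on the neuron list (4033), 539 and 497 by DESeq2, 514 and 508 with equal cell numbers, 525 and 1350 by total UMIs, and 567 and 1139 with no filter. Scaling without the satellite-glia genes moved the median by -0.14. In cells under 6000 UMIs, chosen after seeing the data, it was 358 and 428 (786), of 1639 genes tested. The other 2 such alternatives, cells at most 15 percent mitochondrial and 20 or more Fabp7 UMIs, gave 641 and 798, and 589 and 809. Leaving out each mouse gave 1124 to 1255 in all, 570 to 641 higher and 511 (without mouse 3) to 672 lower.

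For the interaction (558 and 729), total UMIs gave 1173 lower, and leaving out each mouse gave 354 to 511 higher (357 without mouse 1, 354 without mouse 2) and 518 to 674 lower. For the low sides (932 in all), DESeq2 gave 459 and 66 (525), no filter 1036 and 920 (1956) and total UMIs 756 and 293. Without 1 mouse, 529 (mouse 4) to 771 were higher and 36 (mouse 2) to 297 (mouse 1) lower, with 73 lower without mouse 3, and 646 to 1068 in all.

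At 1 or more Fabp7 UMIs the share was 26.3%. Scaling on the neuron list reversed B3gat1 (0.16), Cib2 (1.02), Cox5a (0.39), Cox8b (0.068), Gabbr2 (0.11), Gjb2 (1.73), Gria2 (1.32), Hcn2 (0.11), Ngfr (1.63), Rpl5 (1.29), Scg5 (0.062), mt-Nd1 (1.22), mt-Nd2 (1.58) and mt-Nd4 (1.4995). At 1 or more UMIs Kndc1 was 0.31 and mt-Nd6 -0.034, and mt-Nd6 was -0.53 under 6000 UMIs. Leaving out each mouse gave Otos -0.43 (without mouse 2) to 1.45, and log2 ratios of list sums of -0.0911 (mouse 3) to 0.416 for vessel cells, -0.0106 (mouse 3) to 0.55 for red blood cells and -0.0794 to 0.115 (mouse 4; 0.0162 without mouse 2) for ribosomal proteins. The causes were not tested. Cells above the median depth were not compared, as no mouse had 10 on the high side. With 374301 UMIs on the high side, a gene under about 8.01 CPM there lies below 3 UMIs.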
